A study of Mus musculus with 16 samples.

Results

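The genes described here are 31 mouse genes of cholesterol synthesis and of sterol handling inside the cell, chosen as a named list and found among the 24562 gene entries of a deposited table of read counts. A gene with several transcripts in that table was represented by the transcript of highest total count. RNA sequencing had been run on 16 libraries, all from ApoE-/- mice, a strain that lacks apolipoprotein E and is prone to atherosclerosis. The groups were 3 cre and 3 wild-type libraries of B1b cells, and 5 cre and 5 wild-type libraries of whole aorta. The study compared mice lacking CD40 in B cells only, labelled cre, with wild-type mice, labelled wt, so ApoE deficiency was shared by every group. B1b cells, an innate-like B cell subset, had been sorted from peritoneal lavage by surface markers, among them B220lo, IgMhi and CD5lo. The labels name neither the Cre line nor its promoter, and give no age or sex. Whether the libraries of a group come from different animals is not stated either, and p-values here reflect the spread between libraries, which may be technical.

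Cells build cholesterol from acetyl units through mevalonate and squalene. When sterol in the endoplasmic reticulum is low, SCAP escorts the SREBP transcription factors to the Golgi, where they are cut and released to switch on the enzymes of this route, while INSIG proteins hold SCAP back when sterol is plentiful. Liver X receptors sense oxysterols and drive efflux, and lysosomal proteins release the cholesterol that arrives inside lipoproteins. In atherosclerosis this balance is best known from macrophages and smooth muscle cells of the arterial wall, which store the excess as cholesteryl ester.

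The list holds 19 synthesis genes and 12 genes of control and handling. From acetyl units to the isoprenoids run Acat2, Hmgcs1, Mvk, Pmvk, Mvd, Idi1, Fdps and Ggps1. From squalene to cholesterol run Fdft1, Sqle, Lss, Cyp51, Tm7sf2, Msmo1, Nsdhl, Hsd17b7, Ebp, Sc5d and Dhcr7. Control genes are Srebf2, Scap, Insig1 and Insig2, and the liver X receptor genes Nr1h3 and Nr1h2 stand with their target Mylip. Stard4, Soat1, Lipa, Npc1 and Npc2 move, esterify or release sterol.

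Promoters are shown for 4 members because their levels carry the differences between aortic libraries described further on: Hmgcs1 and Mvd of the mevalonate segment, Msmo1 of the later segment, and Insig1. The sequences are RefSeq promoters on GRCm38.p6, each with 250 bases before and 50 bases after the transcription start, written 5′ to 3′ on the gene's own strand. Capitals mark the sterol regulatory element TCACNCCAC, a form of the site that SREBP binds, and CCAAT, the box bound by NF-Y, on either strand. Hmgcs1, for the synthase that makes HMG-CoA, is on the plus strand at chr13:119690101-119690400. Mvd, for the decarboxylase that makes isopentenyl diphosphate from mevalonate diphosphate, is on the minus strand at chr8:122443373-122443672. Msmo1, for a sterol demethylating oxidase, is on the minus strand at chr8:64733529-64733828. Insig1 is on the plus strand at chr5:28071162-28071461.
Hmgcs1: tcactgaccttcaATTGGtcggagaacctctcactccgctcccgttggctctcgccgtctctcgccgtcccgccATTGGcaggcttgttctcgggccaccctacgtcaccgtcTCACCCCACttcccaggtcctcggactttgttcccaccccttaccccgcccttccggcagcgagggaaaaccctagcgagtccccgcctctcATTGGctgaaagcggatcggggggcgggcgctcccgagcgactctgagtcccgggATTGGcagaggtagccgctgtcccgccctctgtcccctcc
Mvd: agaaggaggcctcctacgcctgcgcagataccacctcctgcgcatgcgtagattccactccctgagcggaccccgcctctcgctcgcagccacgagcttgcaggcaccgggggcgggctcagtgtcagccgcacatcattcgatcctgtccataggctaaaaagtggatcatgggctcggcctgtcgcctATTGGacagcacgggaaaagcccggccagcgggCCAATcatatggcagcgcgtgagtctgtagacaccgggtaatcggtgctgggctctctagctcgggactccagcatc
Msmo1: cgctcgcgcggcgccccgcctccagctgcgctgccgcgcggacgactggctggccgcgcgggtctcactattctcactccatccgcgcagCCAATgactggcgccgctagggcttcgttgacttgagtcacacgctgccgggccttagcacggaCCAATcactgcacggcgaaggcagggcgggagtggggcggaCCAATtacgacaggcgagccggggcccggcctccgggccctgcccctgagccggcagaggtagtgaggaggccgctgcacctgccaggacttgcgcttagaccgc
Insig1: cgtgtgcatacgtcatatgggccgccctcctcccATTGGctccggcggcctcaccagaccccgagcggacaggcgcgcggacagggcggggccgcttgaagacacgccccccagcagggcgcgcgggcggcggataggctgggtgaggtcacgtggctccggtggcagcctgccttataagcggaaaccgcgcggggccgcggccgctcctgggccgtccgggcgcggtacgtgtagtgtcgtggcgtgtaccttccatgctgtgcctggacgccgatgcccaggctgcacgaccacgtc

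A RefSeq promoter was matched for 26 of the 31 members. TCACNCCAC was found in 1 of them, Hmgcs1, as TCACCCCAC 137 bases before the start, and in 1.44% of all genes with a promoter of the same length. CCAAT was found in 22 of the 26, among them 15 of 16 synthesis genes, against 41.1% of all genes. The GC box GGGCGG was found in 22 of the 26 and in 38.2% of all genes. The E-box CACGTG, which overlaps none of the capitals above, was found in 5 of the 26 and in 8.09% of all genes. Promoter windows of 1 gene with several starts were counted as 1 gene, and a match says nothing about binding in these samples.

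Library totals, with 1 transcript per gene, lay between 6815829 and 9911226 counts for B1b cells and between 1645926 and 7300894 for aortas, where cre 2 and wild type 5 were below 2000000. Levels below are counts-per-million (CPM) after TMM scaling within the libraries of each comparison. Cd40, the targeted gene, had 30.0, 30.2 and 38.1 CPM in cre B1b cells, against 39.4, 34.0 and 36.8 CPM in wild-type B1b cells. Its log2 fold change was -0.16 (adjusted p = 0.679, edgeR quasi-likelihood test), and since the deleted part is not given in the sources used here, a count over the whole transcript does not check the labels. The 7 B cell markers summed to 7591 to 8186 CPM in cre and 8332 to 8740.1 CPM in wild-type B1b cells. Among aortas, 3 libraries stood apart in adipocyte markers: the 9 markers summed to 4916 CPM in cre 3, 5731 in cre 4 and 4662 in wild type 5, against 997 to 2500 CPM in the other 7. Smooth muscle markers were high in every aorta, at 8530 to 22711 CPM in cre and 12756 to 17944 CPM in wild type. Since these are bulk samples, fewer cells of a type and less RNA per cell cannot be told apart.

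Per transcript length, wild-type B1b cells held 5 control and handling genes above every synthesis gene that had a length. Srebf2, the gene of the SREBP that governs cholesterol synthesis, stood first at 68.8 ± 4.36 CPM per kilobase (SD, n = 3, as for the other B1b levels here). Mylip, whose product marks the low-density lipoprotein receptor for degradation, followed at 58.9 ± 5.33, Nr1h2, the widely expressed liver X receptor beta, at 57.1 ± 5.18, and Npc2, a soluble lysosomal carrier of cholesterol, at 55.7 ± 1.95. Lipa, lysosomal acid lipase, came next at 50.5 ± 3.70. Mylip, Nr1h2 and Npc2 lay within their SDs of each other. Cyp51, the lanosterol demethylase, was the highest synthesis gene at 29.7 ± 8.88, and Tm7sf2, a sterol reductase, was the lowest synthesis gene tested at 2.62 ± 0.185, next to Mvk at 2.71 ± 0.724.

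Wild-type aortas had another order. Npc2 stood first at 137 ± 25.3 and Lipa second at 84.0 ± 15.8 CPM per kilobase (SD, n = 5), followed by Nr1h2 at 48.5 ± 5.63. Fdft1, squalene synthase, followed at 25.3 ± 3.70 and Insig2, another SCAP retainer, at 22.6 ± 5.14, within their SDs of each other. Srebf2, at 15.6 ± 2.91, ranked 14. In the cre groups Srebf2 was again first in B1b cells, at 64.7 ± 8.32, and Npc2 first in aortas, at 151 ± 15.4. No length was available for Ggps1, the geranylgeranyl diphosphate synthase gene. A length is that of the annotated transcript, and a shorter form in use would give a higher level.

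**Figure D1:**
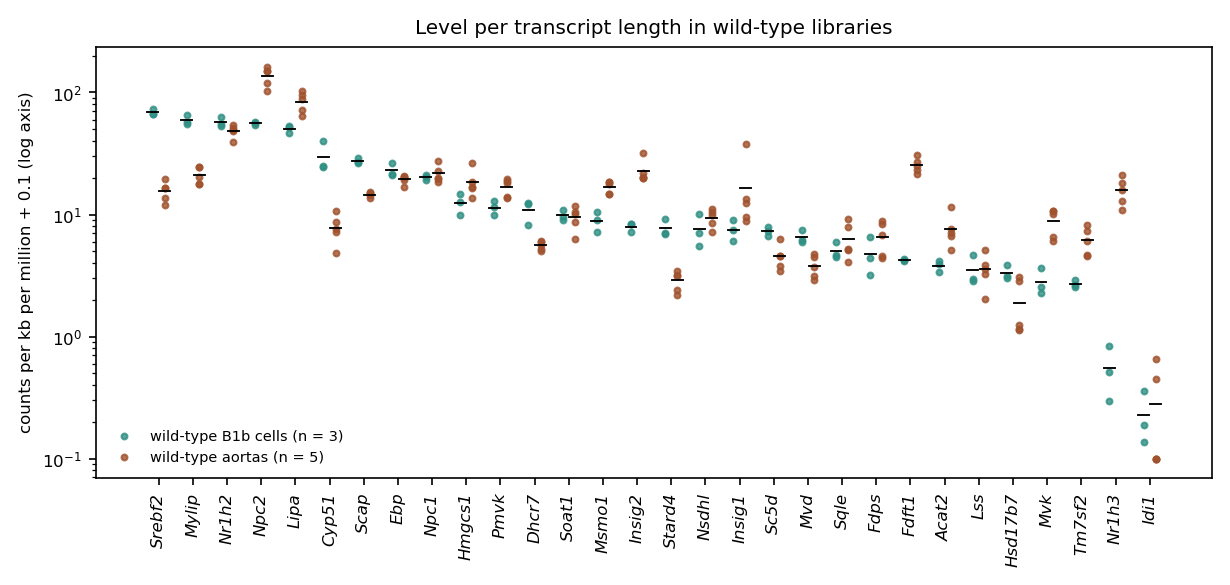
Level of 30 sterol genes per transcript length (CPM per kilobase, plus 0.1, log axis) in wild-type B1b cells (n = 3) and wild-type aortas (n = 5), ordered by the B1b mean; points are libraries and bars are means. Srebf2 leads in B1b cells at 68.8 and Npc2 leads in aortas at 137.

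Between wild-type B1b cells and wild-type aortas, Srebf2, Cyp51, Mylip, Stard4 and Dhcr7 were higher in B1b cells by the largest folds, and Nr1h3, Fdft1, Mvk, Insig2 and Npc2 lower by the largest. Of the 30 members tested, 10 were higher and 11 lower (edgeR, adjusted p under 0.05), and 9 did not pass. Nr1h3, among the 11, passed the count filter only through the aortas. In the same comparison 75.9% of all genes tested were called, 35.4% higher and 40.4% lower, so the members' share of calls was near that of genes at large. The groups did not overlap for 9 members that were higher and 10 that were lower, where 34.6% and 37.9% of all genes lay so. Tissue and preparation cannot be told apart here, since sorted cells are set against whole frozen tissue.

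Among control genes, Srebf2 had 339.6, 372 and 331 CPM in wild-type B1b cells, against 82.5, 69.4, 60.6, 83.4 and 99.6 CPM in wild-type aortas. Every B1b library lay above every aorta, with a log2 fold change of 2.14 ± 0.15 (SE, adjusted p = 4.87e-08, edgeR). Scap, which encodes the SREBP escort, was higher by 0.91 ± 0.10 (SE), at a mean of 115 CPM in B1b cells and 61.2 CPM in aortas. Of the retainer genes, Insig2 was lower in B1b cells. It had 22.2, 22.2 and 18.8 CPM in B1b cells, against 58.5, 53.3, 53.5, 54.2 and 85.8 CPM in aortas, a log2 fold change of -1.52 ± 0.19 with no overlap. Insig1 had 16.2, 23.8 and 19.8 CPM in B1b cells, against 23.8, 35.7, 25.3, 33.1 and 102 CPM in aortas, and did not pass (-1.07, adjusted p = 0.0521, edgeR). Wild-type aorta 5 alone was far above the rest. Without it Insig1 passed at a smaller difference of -0.57 (adjusted p = 0.0188), and it also passed without aorta 1 (-1.22), aorta 3 (-1.22) or aorta 4 (-1.17). Over all alternatives its adjusted p lay between 0.00802 (DESeq2) and 0.159 (edgeR without B1b wild type 1).

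The synthesis genes split between the tissues rather than moving together: 6 of 18 were higher in wild-type B1b cells and 7 lower, with a median log2 fold change of -0.30, against -0.09 over all genes tested. Cyp51 had 97.7, 156 and 95.1 CPM in B1b cells, against 29.5, 33.9, 18.6, 27.9 and 41.3 CPM in aortas, a log2 fold change of 1.97 ± 0.23 (SE, adjusted p = 6.16e-06, edgeR). All 3 B1b libraries exceeded all 5 aortas. Also higher were Dhcr7, the last reductase of the route, by 0.98, Hsd17b7, a keto-reductase, by 0.94, Mvd by 0.83, Sc5d, the lathosterol desaturase, by 0.72, and Ggps1 by 0.39. The largest difference the other way was that of Fdft1, with 15.1, 15.1 and 15.4 CPM in B1b cells, against 91.3, 78.5, 114, 98.2 and 85.3 CPM in aortas (log2 fold change -2.62 ± 0.16, SE). Fdft1 is uncertain, because 20.9% of its exon bases overlap Ctsb on the opposite strand. Ctsb, the gene of a lysosomal protease, had 246 to 276 CPM in B1b cells and 2371 to 4530 CPM in aortas, and whether the counting used strand is not given in the sources used here. Scap (18.6%), Hmgcs1 (16.1%), Npc1 (9.78%), Lss (8.16%) and Cyp51 (4.22%) also share exon bases with a gene on the opposite strand. Mvk, mevalonate kinase, was lower by a log2 fold change of -1.65, Tm7sf2 by -1.20, Acat2, a thiolase that joins acetyl units, by -0.97, Msmo1 by -0.92, Pmvk, the next kinase after Mvk, by -0.57 and Hmgcs1 by -0.56.

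The synthesis median was -0.50 without B1b wild type 2 and -0.17 without B1b wild type 1. Some of the smaller calls rested on single libraries or on the processing. Hmgcs1 lost its call without wild-type B1b 1 or 3 or aorta 2 (log2 fold changes over all left-out fits -0.70 to -0.41, largest adjusted p = 0.133, edgeR), and Pmvk without B1b 1 or 3 (largest adjusted p = 0.093). Ggps1 and Hsd17b7 each lost it without B1b 2 or 3 or aorta 1, 3 or 4, with largest adjusted p of 0.114 and 0.107. Ggps1 also lost its call with RLE or upper quartile scaling, DESeq2, no filter, the stricter filter and the transcript of lowest count (adjusted p 0.0509 to 0.156). Hsd17b7 lost it with RLE scaling, DESeq2 and the fit of all 16 libraries (0.0519 to 0.0627), and in that last fit Hmgcs1 (0.235) and Pmvk (0.0621) lost theirs. Values for Fdps, the farnesyl diphosphate synthase gene, Sqle, the squalene epoxidase gene, Lss, the lanosterol synthase gene, Nsdhl, a sterol dehydrogenase gene, and Ebp, a sterol isomerase gene, did not pass and lay between -0.46 and 0.24. When cre libraries stood in for wild type on both sides, 16 members were called, 15 of them among the 21 of the wild-type comparison. Mvd, Dhcr7, Sc5d, Hsd17b7, Hmgcs1 and Tm7sf2 lost the call there, and Fdps gained one at -1.43.

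Of the 8 receptor and handling genes, Mylip and Stard4 were higher in B1b cells, Nr1h3, Npc2 and Lipa were lower, and Nr1h2, Npc1 and Soat1 did not pass. Nr1h3, liver X receptor alpha, is known from macrophages, liver and fat. It had 0.81, 0.39 and 1.43 CPM in wild-type B1b cells, against 31.1, 20.9, 40.8, 35.2 and 24.9 CPM in wild-type aortas (log2 fold change -5.07 ± 0.38, SE, adjusted p = 8.21e-08, edgeR). It was thus present in every aorta and near the counting limit in B1b cells, where 22 reads in wild-type and 11 in cre libraries were counted in all. Nr1h3 was too low to be tested within B1b cells and passed the filter here only through the aortas. Its p-value therefore adds nothing to the levels given. Nr1h2 did not pass (0.22). Mylip had 200, 166 and 173 CPM in B1b cells, against 54.7, 53.8, 62.2, 74.2 and 75.2 CPM in aortas, higher by 1.49 ± 0.14 (SE). Stard4, a carrier of cholesterol between membranes, was higher by 1.46, at 34.8 to 45.7 CPM in B1b cells and 10.7 to 17.2 CPM in aortas. Npc2 had 187, 175 and 187 CPM in B1b cells, against 498, 391, 536, 492 and 338 CPM in aortas, and was lower, with a log2 fold change of -1.30 ± 0.17 (SE). Lipa was lower by a log2 fold change of -0.74. Npc1, the membrane partner of Npc2 in lysosomal export, and Soat1, which esterifies cholesterol, did not pass, at -0.12 and 0.03. Macrophage markers, in whose cells lysosomal lipid genes are abundant, were lower in B1b cells for 13 of 14 genes, and their part in these differences was not tested.

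**Figure D2:**
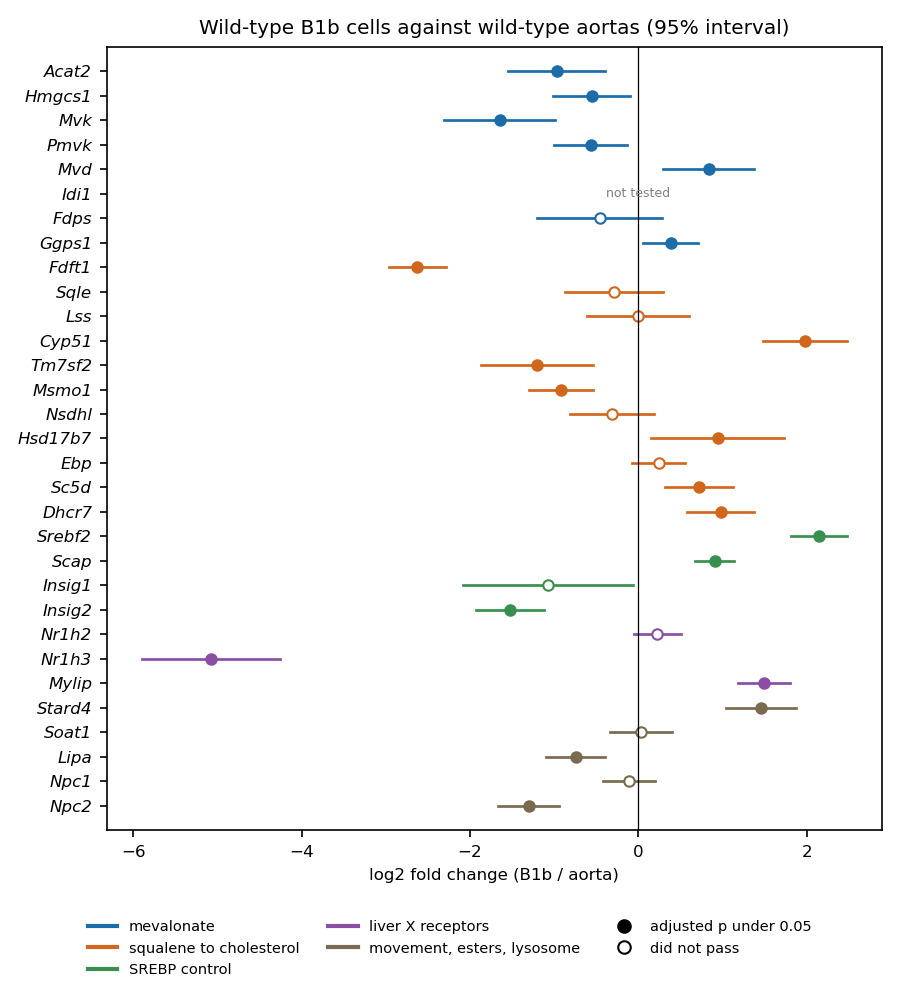
Log2 fold change of each sterol gene in wild-type B1b cells (n = 3) over wild-type aortas (n = 5), with 95% intervals; colours are roles, and filled points passed an adjusted p of 0.05. Srebf2, at 2.14, lies farthest to the right and Nr1h3, at -5.07, farthest to the left. Nr1h3 passed the count filter only through the aortas.

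In B1b cells, no member was called between cre and wild type, and the log2 fold changes lay between -0.31 and 0.32. Of 31 members, 29 could be tested, since Idi1, the isopentenyl diphosphate isomerase gene, and Nr1h3 were too low. None passed an adjusted p of 0.05 with edgeR, and none had an unadjusted p under 0.05. DESeq2 and limma-voom called 0 as well. Over all genes 0.707% were called, 0.486% higher and 0.222% lower in cre. Log2 fold changes were above 0 for 15 members and below 0 for 14, with a median of 0.01, against -0.00 over all genes, and the groups overlapped for every member, where 9.71% of all genes were higher and 8.66% lower without overlap.

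Srebf2 had 303, 305 and 374 CPM in cre B1b cells, against 340.5, 371 and 328 CPM in wild-type B1b cells, a log2 fold change of -0.08 with a 95% interval of -0.26 to 0.10. All wild-type values lay within the cre range. Scap was at -0.10 (-0.30 to 0.11), Insig1 at 0.11 (-0.25 to 0.48) and Insig2 at 0.16 (-0.18 to 0.51). The largest differences in size among members were those of Mvk and Dhcr7. Dhcr7 had 23.4, 23.5 and 25.8 CPM in cre cells, against 34.3, 34.0 and 22.4 CPM in wild-type cells, with a log2 fold change of -0.31 (-0.66 to 0.03). Wild type 1 and 2 lay above every cre library, and wild type 3 below them. Mvk had 3.78, 6.74 and 5.75 CPM in cre cells, against 3.51, 3.85 and 5.55 CPM in wild-type cells, with a log2 fold change of 0.32 (-0.43 to 1.07), and its low count leaves a wide interval.

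Synthesis genes as a group were balanced in B1b cells. Among 18 tested, 10 were above 0 and 8 below, with a median of 0.02, which was 0.13 without wild type 2 and at most 0.02 with any other library left out. Their summed level was 432, 466 and 497 CPM in cre cells, against 444, 549 and 427 CPM in wild-type cells. Wild type 2 was the highest of all 6. Cyp51, the highest synthesis gene per length, had 97.1, 96.9 and 130 CPM in cre cells and 97.9, 156 and 94.3 CPM in wild-type cells. Cre 3 and wild type 2 were the high libraries. Hmgcs1 had 37.0, 46.5 and 52.5 CPM in cre cells and 43.5, 50.5 and 33.4 CPM in wild-type cells, a log2 fold change of 0.10 (-0.22 to 0.42).

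The lysosomal and esterifying genes had no call in B1b cells, with 95% intervals as follows. Npc1 was at 0.04 (-0.15 to 0.22), Soat1 at -0.10 (-0.30 to 0.10), Lipa at -0.11 (-0.34 to 0.12) and Npc2 at 0.14 (-0.03 to 0.32). Stard4 was at 0.12 (-0.17 to 0.40), Mylip at -0.07 (-0.26 to 0.12) and Nr1h2 at -0.18 (-0.38 to 0.02). Sums of 2 other marker lists, of macrophages and of mitosis, were higher in every cre library than in any wild-type one. The 14 macrophage and monocyte markers summed to 523 to 573 CPM in cre cells and 293 to 448 CPM in wild-type cells, and 10 mitosis markers to 103 to 253 CPM in cre cells and 56.8 to 77.8 CPM in wild-type cells. Most of the macrophage sum was Lyz2, at a mean of 207 CPM in cre and 101 CPM in wild-type cells, and Itgam, at 199 and 178 CPM. Fold changes of the macrophage markers tested were above 0 for 10 and below 0 for 3. Adgre1 had a lower mean in cre cells, at 15.0 against 18.2 CPM, as did Timd4, at 1.82 against 2.57 CPM. Of 13 macrophage markers tested, 1 rose, Csf1r (edgeR, where 0.486% of all genes did). DESeq2 called Csf1r and Mrc1, and limma-voom Lyz2. The groups did not overlap for 5 macrophage markers, higher in cre cells, where 9.71% of all genes lay so. An unadjusted p under 0.05 (edgeR) was found for 6 of the 13 macrophage markers and 6 of 9 mitosis markers, all higher in cre cells. The same held in either direction for 1563 of all 11732 genes. Endothelial markers had lower sums, at 245 to 263 CPM in cre cells and 269.8 to 296 CPM in wild-type cells. Nearly all of that sum was Pecam1, at 244 to 260 CPM in cre and 267 to 292 CPM in wild-type cells. Only 2 of the 5 endothelial markers could be tested. The part of these marker lists in the sterol values was not tested.

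In aortas, no member was called between cre and wild type either, yet most synthesis genes had higher means in cre libraries. Of 30 members tested, 0 passed with edgeR, and 4 had an unadjusted p under 0.05: Acat2, Mvd, Fdps and Dhcr7. That share is near the 1683 of 13364 over all genes. DESeq2 called 0, with 5 at an unadjusted p under 0.05, and limma-voom 0, with 4. Over all genes 0.015% were called, all higher in cre. Fold changes were above 0 for 16 of 18 synthesis genes, with a median log2 value of 0.46, against 0.00 over all genes, and for 25 of 30 members, with a median of 0.28. Ebp and Dhcr7 did not overlap between the groups and were higher in cre, which held for 1.65% of all genes, and no member was lower without overlap.

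**Figure D3:**
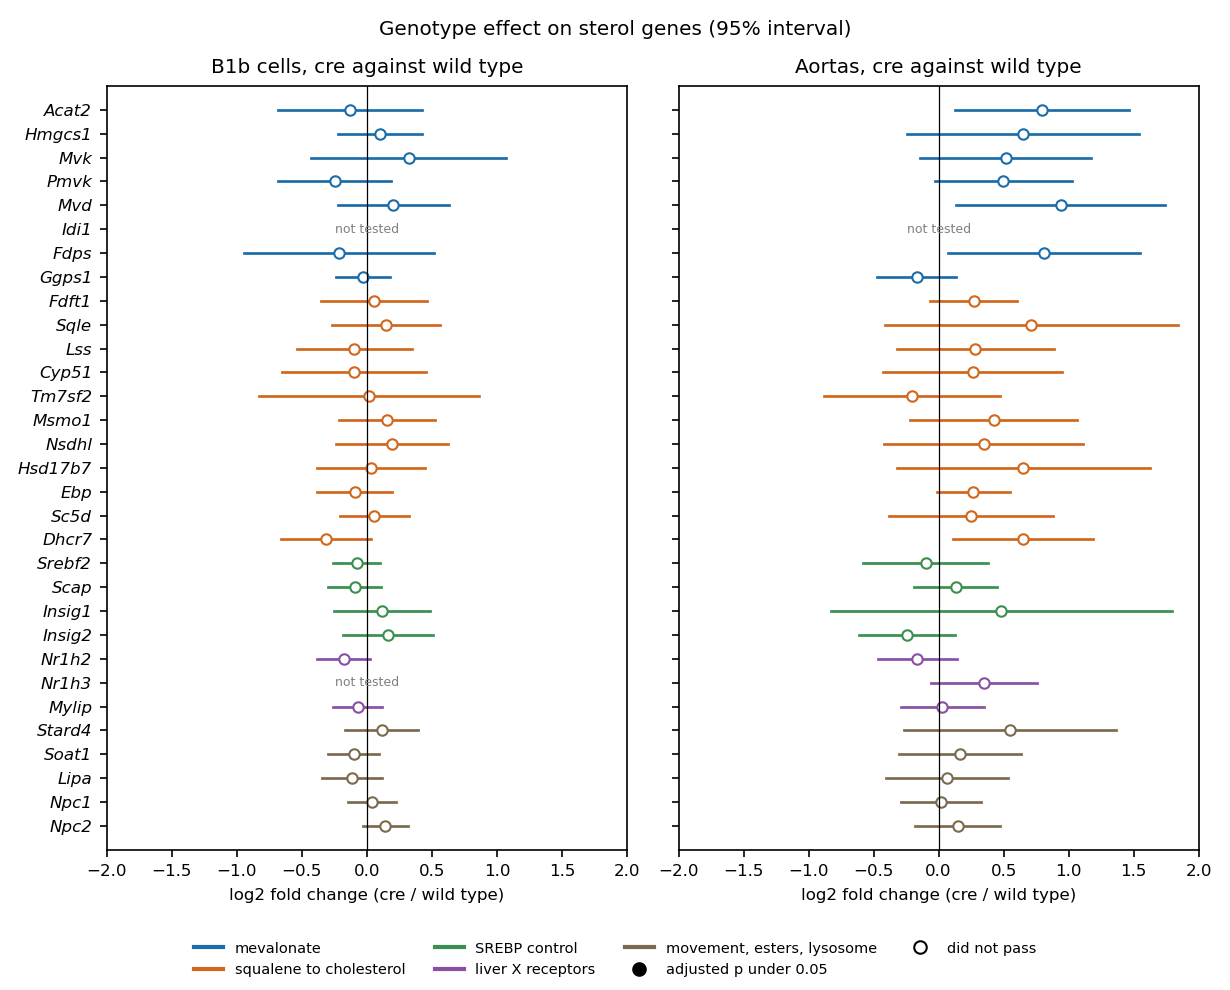
Log2 fold change of each sterol gene in cre over wild type, with 95% intervals, in B1b cells (left, n = 3 each) and aortas (right, n = 5 each); colours are roles, and no point passed an adjusted p of 0.05. The B1b values lie between -0.31 and 0.32, and the aortic values of synthesis genes lie mostly to the right of 0 with wide intervals.

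A single aorta, cre 4, carried much of that difference. It was the highest of all 10 aortas for 17 of the 18 synthesis genes tested (94.4%), Ggps1 being the exception, against 13% of all genes, and its median log2 distance from the median of the other aortas was 1.32. For the other 12 members it was the highest in 4, with a median distance of 0.06. Summed over the 19 synthesis genes, cre aortas 1 to 5 had 495, 491, 594, 1088 and 461 CPM, against 474, 463, 456, 448 and 591 CPM in wild-type aortas 1 to 5. The other 4 cre aortas lay within or close to the wild-type range. Without cre 4, 11 of 18 synthesis genes were above 0, the median was 0.12, and 19 of 30 members were above 0, with a median of 0.09. The number of members with an unadjusted p under 0.05 was then 0, against 2 without wild type 2, 1 without wild type 4, and 3 to 6 with any other library left out (edgeR, none called).

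Of the 7 genes tested in the first segment, cre 4 was highest in all but Ggps1. Hmgcs1 had 64.5, 56.7, 110, 215 and 44.7 CPM in cre aortas 1 to 5, against 58.3, 65.1, 47.2, 57.0 and 91.5 CPM in wild-type aortas 1 to 5. Cre 4 was highest, followed by cre 3 and wild type 5. Its log2 fold change was 0.65 ± 0.40 (SE, adjusted p = 0.531, edgeR) with all libraries and 0.14 without cre 4. Mvd had 11.1, 14.8, 6.17, 25.3 and 6.81 CPM in cre aortas, against 8.16, 5.59, 6.68, 5.11 and 8.46 CPM in wild-type aortas. Cre 1, 2 and 4 lay above every wild-type aorta, and cre 3 and 5 within their range. The value was 0.94 ± 0.37 (adjusted p = 0.332) and 0.49 without cre 4. Acat2, at 0.80 ± 0.31 with all libraries and 0.43 without cre 4, had 20.4, 22.8, 29.4, 53.0 and 16.6 CPM in cre aortas, against 14.9, 17.0, 15.7, 11.2 and 25.9 CPM in wild-type aortas. Fdps was at 0.81 ± 0.34 and at 0.45 without cre 4. Its exon bases overlap the annotated gene Gm43738 on the same strand over 81.3% of their length, so its reads cannot be assigned to Fdps alone. Mvk, at 0.52, and Pmvk, at 0.50, likewise had smaller values without cre 4, at 0.21 and 0.29, and Ggps1 was at -0.17 and -0.16.

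In the later segment, cre 4 stood far from the other cre aortas for Sqle, Msmo1, Cyp51, Hsd17b7, Sc5d and Dhcr7, and closer to them for Ebp and Fdft1. Sqle, whose product adds oxygen to squalene at a step known to limit flux, had 12.6, 23.4, 16.6, 71.9 and 10.98 CPM in cre aortas 1 to 5, against 21.8, 14.3, 10.97, 13.9 and 24.9 CPM in wild-type aortas 1 to 5. The other 4 cre aortas lay within the wild-type range. Its log2 fold change was 0.71 ± 0.51 (SE, adjusted p = 0.590, edgeR) and turned to -0.12 without cre 4. Msmo1 had 37.7, 33.9, 32.0, 94.7 and 28.6 CPM in cre aortas, against 30.2, 37.8, 30.1, 36.2 and 37.6 CPM in wild-type aortas, with values of 0.42 and, without cre 4, -0.05. Again 9 of the 10 aortas lay in 1 narrow range. The sign also turned without cre 4 for Cyp51, at 0.26 with all libraries and -0.17 without it, Nsdhl, at 0.35 and -0.13, and Sc5d, at 0.25 and -0.15. Hsd17b7 was at 0.65 with all libraries and 0.11 without cre 4, Lss at 0.28 and 0.06, Fdft1 at 0.27 and 0.17, and Tm7sf2 at -0.21 and -0.49.

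Ebp and Dhcr7 kept higher cre values outside cre 4. Dhcr7 had 18.96, 17.9, 18.0, 43.6 and 21.0 CPM in cre aortas 1 to 5, against 15.6, 14.1, 16.7, 14.5 and 16.9 CPM in wild-type aortas 1 to 5. The lowest cre aorta, at 17.9 CPM, was just above the highest wild-type aorta. The log2 fold change was 0.65 ± 0.25 (SE, adjusted p = 0.321, edgeR), and 0.30 (adjusted p = 0.555) without cre 4. Ebp had 42.9, 36.4, 37.5, 45.4 and 41.2 CPM in cre aortas, against 33.4, 29.5, 35.8, 35.6 and 35.4 CPM in wild-type aortas, and its value of 0.27 ± 0.13 (adjusted p = 0.416) was 0.23 without cre 4. Neither passed the test in any fit run here.

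Other tissue markers differed between the same libraries. The 7 Schwann cell markers, genes of myelinating glia, summed to 708 CPM in cre 4, against 337 to 442 CPM in the other cre aortas and 336 to 524 CPM in wild-type aortas. Adipocyte markers were highest in cre 4 as well, at 5731 CPM. Markers of atrial heart muscle, in contrast, were low in cre 4, at 529.5 CPM, where the other cre aortas had 2464 to 5280 CPM and wild-type aortas 388 to 1796 CPM. Fibroblast markers summed to 14029 to 24069 CPM in cre and 22116 to 30614 CPM in wild-type aortas, and B cell markers to 72.3 to 186 CPM in cre and 40.9 to 63.3 CPM in wild-type aortas. The part of these cell types in the synthesis values was not tested.

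Among control genes, Insig1 was high in libraries besides cre 4. Insig1, itself a well-known SREBP target, had 34.5, 17.9, 101, 109 and 29.7 CPM in cre aortas 1 to 5, against 24.0, 36.2, 25.6, 33.2 and 102 CPM in wild-type aortas 1 to 5. Cre 3, cre 4 and wild type 5 were near 100.8 to 109.3 CPM and the remaining 7 at 17.9 to 36.2 CPM. These 3 are the aortas with the highest adipocyte markers, whose part in the Insig1 values was not tested. Fasn, fatty acid synthase, chosen after its values were seen, had 3933, 3596 and 4422 CPM in cre 3, cre 4 and wild type 5, against 419 to 874 CPM in the other aortas. The genotype fold change of Insig1 was 0.48 ± 0.59 on the log2 scale (SE, adjusted p = 0.762, edgeR) and 0.14 without cre 4. Insig2 was at -0.24, with its highest value, 85.7 CPM, in wild type 5. Srebf2 had 56.7, 40.7, 81.3, 112 and 75.5 CPM in cre aortas, against 83.3, 70.5, 61.2, 83.6 and 99.4 CPM in wild-type aortas, and was at -0.10 (95% interval -0.58 to 0.38). Cre 1 and 2 lay below every wild-type aorta and cre 4 above them. Scap was at 0.13.

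**Figure D4:**
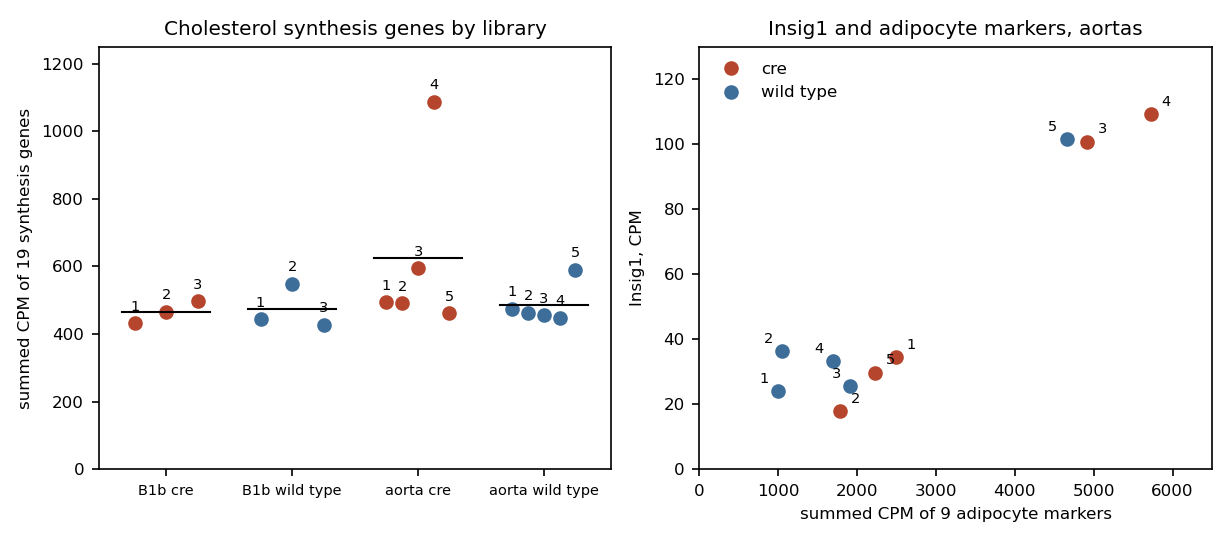
Left, summed CPM of the 19 synthesis genes in each library, with group means as bars and replicate numbers beside points. Right, Insig1 CPM against summed CPM of 9 adipocyte markers in the 10 aortas. B1b cells and aortas were scaled separately; cre aorta 4 stands alone at 1088 CPM on the left, and cre 3, cre 4 and wild type 5 lie together near 100.8 to 109.3 CPM of Insig1 on the right.

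No receptor or handling gene passed the test in aortas. Nr1h3 had 38.9, 36.4, 33.0, 49.7 and 39.4 CPM in cre aortas 1 to 5, against 31.4, 21.3, 41.2, 35.3 and 24.9 CPM in wild-type aortas 1 to 5, with a log2 fold change of 0.35 ± 0.19 (SE, adjusted p = 0.458, edgeR). The groups overlapped, with wild type 3 above 4 of the cre values. Nr1h2 was at -0.16 and Mylip at 0.03. Stard4 had 16.3, 11.7, 11.2, 48.0 and 13.9 CPM in cre aortas, against 11.8, 17.5, 10.8, 15.5 and 15.9 CPM in wild-type aortas, so that 9 aortas lay between 10.8 and 17.5 CPM. It was at 0.55 with all libraries and at -0.08 without cre 4. Soat1, Lipa, Npc1 and Npc2 lay between 0.02 and 0.16. For Npc1 the 95% interval was -0.29 to 0.33, and for Lipa, which ran from 155 to 374 CPM in cre and from 190 to 302 CPM in wild-type aortas, it was -0.40 to 0.53.

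Idi1 was counted by few reads in every group. It had 19 reads in cre and 9 in wild-type B1b cells, and 7 in cre and 9 in wild-type aortas. In each aortic group 3 of 5 libraries had a count of 0, and a count of 0 allows up to 0.411 to 1.82 CPM at the depths of the 10 aortas (3 counts of the total, counting error only). It was not tested.

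The genotype effect was then compared between the tissues in 1 model over all 16 libraries. No member passed (0 of 30, edgeR, where 0.0199% of all genes were called, 0.00663% with a higher effect in B1b cells and 0.0133% with a lower one), 2 had an unadjusted p under 0.05, against 1678 of 15091 over all genes, and DESeq2 and limma-voom called 0 with 2 each. The B1b effect minus the aortic effect was -0.98 ± 0.36 for Dhcr7 (log2, SE, adjusted p = 0.342) and -1.34 ± 0.62 for Nr1h3 (adjusted p = 0.433), a value that rests on the few reads in B1b cells. For synthesis genes the median difference was -0.40, against -0.05 over all genes, with 16 of 18 below 0. It was -0.07 without aorta cre 4 and -0.19 without B1b wild type 2.

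Other genes of sterol and lipid metabolism were examined in the same way, as 4 further lists. In B1b cells 0 of 18 other synthesis and SREBP genes, 0 of 15 transport and efflux genes, 0 of 13 fatty acid synthesis genes and 0 of 17 lysosome genes passed with edgeR. At an unadjusted p under 0.05 the counts were 3, 2, 1 and 4, against 1563 of 11732 over all genes, and DESeq2 and limma-voom also called 0. The 4 lysosome genes all had lower values in cre cells. Among the 2 genes of smallest p in each list were Mbtps2, the SREBP site protease, at 0.35 and Rnf139, a ubiquitin ligase, at 0.23; Lrp1, a lipoprotein receptor, at 0.73 (adjusted p = 0.156) and Gramd1a, a sterol carrier at membrane contacts, at -0.29; Acsl4, an acyl-CoA synthetase, at 0.40 and Acss2, an acetyl-CoA synthetase, at -0.54; and Tfeb, a regulator of lysosomal genes, at -0.35.

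In aortas 0 passed in each list as well, of 18, 18, 17 and 18 tested, and 2, 3, 0 and 0 had an unadjusted p under 0.05 with edgeR, against 1683 of 13364 over all genes. DESeq2 called 1 gene, Mbtps2, and limma-voom 0. Mbtps2 had 13.1, 7.40, 8.06, 13.4 and 14.9 CPM in cre aortas 1 to 5, against 23.0, 20.1, 21.9, 19.01 and 22.7 CPM in wild-type aortas 1 to 5, with a log2 fold change of -0.87 ± 0.21 (SE, adjusted p = 0.174). Each cre aorta lay below every wild-type aorta, which held for 1.27% of all genes. Lpcat3, which remodels phospholipids, was at 0.31 and Lrp1 at -0.48. Fatty acid synthesis genes had a median of 0.45, with 15 of 17 above 0, close to the 0.46 of the cholesterol synthesis genes, and of 0.08 without cre 4. Their leading genes were Scd2, a desaturase, at 0.48 and Acss2 at 0.82. Ctsd, a lysosomal protease, at 0.38 and Psap, the saposin precursor, at 0.31 led the lysosome list. For the difference of the genotype effect between tissues, edgeR and limma-voom called 0 genes of these lists. DESeq2 called Mbtps2 and Lrp1 there, where it called 173 of all 15091 genes.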

How the data were processed

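RNA sequencing of 16 mouse libraries was analysed from the deposited table of raw read counts per transcript. Per the submitters' processing notes, CASAVA 1.8.2 and STAR 2.5.2b were used with the mm10 genome. For the counting tool, its annotation and its strand setting, nothing is stated in the sources used here. Of 35745 transcript rows, 35440 were named from the RefSeq gene table and 188 from GENCODE. The remaining 117 had no gene name and held 0.24% to 2.5% of counts per library. They stayed in, each as an entry of its own. The row of highest total was kept per gene, giving 24562 entries with the unnamed rows included. Every sample column of the table was used.

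Groups came from the genotype and cell type labels. Genes passing filterByExpr were tested with edgeR 4.0.16 (TMM scaling, robust quasi-likelihood test, Benjamini-Hochberg adjustment over all genes tested, threshold 0.05) in R 4.3.3. DESeq2 1.42.0 and limma-voom (limma 3.58.1) were alternatives, with other scalings, filters, transcript choices and left-out libraries. The fits were tested on simulated data. Totals differed several-fold between aortas, so values in the shallowest libraries are least precise.

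All 31 members are named. Other pathway genes are named if called, or if among the 2 of smallest p in their list. Some of these genes are not reported here. The members and lists were chosen with earlier results of these data known.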

Additional observations from a re-analysis of the deposited data

Results flagged for a closer look

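Within the 5 aortas of each genotype, a sample was singled out when its gap to the nearest other sample exceeded 0.71 of the group's range. This held for 10 of 62 pairs of member and group. A rate of about 1 in 20 groups would apply to independent values of normal distribution. Whether these CPM are so distributed was not tested. Idi1, with a count of 0 in 3 of 5 libraries of each group, is among the 62. Of the 10, 7 were high values of cre aorta 4. Sqle had 71.88 CPM there, against 10.98 to 23.4 CPM in the other cre aortas. Msmo1 had 94.72 CPM (others 28.6 to 37.7), Cyp51 71.61 CPM (others 22.2 to 32.7) and Stard4 47.97 CPM (others 11.2 to 16.3). Hsd17b7 had 26.75 CPM (others 5.67 to 11.7), Sc5d 47.7 CPM (others 14.2 to 22.1) and Dhcr7 43.64 CPM (others 17.9 to 21.0). The genes share this library, so the 7 are not separate events.

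Wild-type aorta 5, among the shallowest libraries, gave high values of both INSIG genes. Insig1 had 101.6 CPM, against 24.0 to 36.2 CPM in the other wild-type aortas, and Insig2 had 85.69 CPM, against 54.1 to 59.0 CPM. Scap was low in cre aorta 1, at 44.33 CPM, against 70.0 to 78.3 CPM in the other cre aortas.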

How the results depend on the processing

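The 0 called members in both genotype comparisons and in the tissue difference of the genotype effect stayed 0 under every alternative run, and the 21 of the wild-type comparison ranged from 16 (cre libraries) to 22. No paired analysis was possible because the labels give no replicate numbers, and those used here only name samples. Sign changes came only at values that were not called, and the cause was not tested. In B1b cells Tm7sf2 was -0.015 with limma-voom and Ggps1 0.027 with the transcript of lowest count per gene. In aortas Npc1 was -0.00027 without a filter, and Srebf2 0.12 without libraries under 2000000 counts. Between wild-type B1b cells and aortas, Soat1 was -0.066 with RLE scaling, -0.051 with upper quartile scaling, -0.065 with DESeq2, -0.014 with the stricter filter, -0.078 without libraries under 2000000 counts and -0.18 with cre libraries, Lss was 0.041 with limma-voom and 0.12 without libraries under 2000000 counts, and Ebp was -0.066 with cre libraries. With each replicate left out in turn, these log2 values crossed 0. In B1b cells: Cyp51 -0.25 to 0.18, Ebp -0.16 to 0.028, Fdft1 -0.032 to 0.23, Fdps -0.55 to 0.11, Ggps1 -0.096 to 0.023, Hmgcs1 -0.045 to 0.25, Hsd17b7 -0.14 to 0.16, Insig1 -0.0092 to 0.27, Lipa -0.18 to 0.022, Lss -0.21 to 0.18, Mylip -0.11 to 0.014, Scap -0.15 to 0.0018, Tm7sf2 -0.36 to 0.22. In aortas: Cyp51 -0.17 to 0.39, Lipa -0.096 to 0.20, Msmo1 -0.053 to 0.56, Mylip -0.064 to 0.0897, Npc1 -0.055 to 0.12, Nsdhl -0.13 to 0.51, Sc5d -0.15 to 0.37, Sqle -0.12 to 0.92, Srebf2 -0.30 to 0.034, Stard4 -0.083 to 0.70. Between tissues: Lss -0.27 to 0.12, Soat1 -0.078 to 0.10. Over all genes, calls in B1b cells numbered 83, against 197 with DESeq2, 327 without a filter, 0 in the fit of all 16 libraries and 35 to 103 with a replicate left out. In aortas they numbered 2, against 204 with DESeq2, 1 with limma-voom or the lowest transcript, 47 with all 16 libraries, 92 without libraries under 2000000 counts and 0 to 14 with a replicate left out. For the difference of effects they numbered 3, against 173 with DESeq2, 17 without libraries under 2000000 counts and 1 to 7 with a replicate left out. Depth limits Tm7sf2, Mvk and Fdps in B1b cells, which have the widest 95% intervals of the members tested there.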
